A study of Saccharomyces cerevisiae with 15 samples.

Results

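The genes described here are 10 genes of the cell wall integrity pathway of the budding yeast Saccharomyces cerevisiae, taken by systematic name from the 7127 gene rows of the count table. They were chosen with earlier results of these data known, so shares over all tested genes stand beside them as description only. All 10 were found and all 10 passed the filter on low counts, which left 6069 genes. They are SLT2 (YHR030C) and RLM1 (YPL089C) of the signalling pathway, FKS2 (YGR032W, listed as GSC2 in the annotation), CRH1 (YGR189C) and BGL2 (YGR282C), which make or remodel wall polysaccharide, the wall protein genes SED1 (YDR077W), CWP1 (YKL096W), PIR3 (YKL163W) and HSP150 (YJL159W), and the membrane protein gene PRM5 (YIL117C). In RefSeq R64 coordinates of the coding sequence, PIR3 lies at chrXI:144401-145378, PRM5 at chrIX:140613-141569, SED1 at chrIV:600793-601809, BGL2 at chrVII:1057783-1058724 and CWP1 at chrXI:261132-261851. In the same way, SLT2 lies at chrVIII:168890-170344, RLM1 at chrXVI:379120-381150, FKS2 at chrVII:548264-553951, CRH1 at chrVII:876669-878192 and HSP150 at chrX:120449-121690. Polyadenylated RNA came from strain W303 with genotype ZPR1-AID in every group, so that Zpr1, a chaperone for newly made translation elongation factor eEF1A, carried an auxin-inducible degron. The 15 libraries formed 5 groups of 3, namely an untreated group (0 h), 3 groups exposed to the auxin derivative 5-Ph-IAA, which lasted 0.5, 1.5 and 3 h, and a solvent control kept in DMSO during 3 h. A parent strain lacking the degron was not analysed here, so effects of the compound and of the depletion cannot be told apart. In bulk RNA, fewer cells that express a gene and less RNA per cell cannot be told apart. DMSO was sampled at 3 h only, so at 0.5 h and 1.5 h solvent and time in culture cannot be told apart from the compound either. The labels do not say whether replicates were separate cultures. In the main fit p-values set a difference against the spread between libraries, estimated over all 5 groups, and that spread may be technical.

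The yeast wall is a mesh of glucan and chitin covered by mannoproteins. When it is stretched or damaged, sensors in the plasma membrane act through the small GTPase Rho1 and the kinase Pkc1 on a chain of kinases that ends in the MAP kinase Slt2. Slt2 activates the transcription factor Rlm1, which in turn raises genes for wall proteins and enzymes, and the pathway is known as a guard against lysis under heat, cell wall drugs and polarised growth.

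Library totals ran from 2530145 to 21282576 counts, and the smallest count of any of the 10 genes was 228. Library 2 of 5-Ph-IAA at 3 h had the lowest total and the highest share of mitochondrially encoded transcripts, 4.62% of its counts (95% Wilson interval 4.59 to 4.64, counting error only), against 0.786% (0.779 to 0.793) and 0.0165% (0.0159 to 0.0171) in its replicates. In the tests of the 10 genes and the counts of calls, the part of that library was measured by leaving it out. Levels, shares of counts, orders of genes and likeness of pattern were computed only with it kept in. The targeted gene ZPR1 had a mean of 153 ± 32.3 CPM (SD, n = 3) in untreated cells and 94.6 ± 50.7 in DMSO. Under 5-Ph-IAA the 0.5 h mean was 289 ± 12.9, the 1.5 h mean 240 ± 22 and the 3 h mean 124 ± 46.4. A degron acts on the protein, so this mRNA does not check the depletion.

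Promoter sequence was not used to choose the 10 genes here, although several are known as Rlm1 targets. The DNA motif bound by Rlm1, a symmetric motif with an A and T core, was found in the 600 bases before the coding start of 6 of the 10 genes, against 124 of 6018 windows of that length over all protein-coding genes (2.06%). The 6 stretches are shown because they hold the only matches to that motif before these genes. Each gives the match in capitals with up to 50 bases on each side, 5′ to 3′ on the coding strand of its gene, read from the RefSeq R64 genome.
PIR3: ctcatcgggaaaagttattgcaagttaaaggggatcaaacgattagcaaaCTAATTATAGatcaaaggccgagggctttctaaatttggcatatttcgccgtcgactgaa
SED1: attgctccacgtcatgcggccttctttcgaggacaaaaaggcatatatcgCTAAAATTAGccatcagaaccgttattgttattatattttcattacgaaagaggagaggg
BGL2: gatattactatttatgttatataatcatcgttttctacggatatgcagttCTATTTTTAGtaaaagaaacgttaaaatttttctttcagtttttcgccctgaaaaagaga
CWP1: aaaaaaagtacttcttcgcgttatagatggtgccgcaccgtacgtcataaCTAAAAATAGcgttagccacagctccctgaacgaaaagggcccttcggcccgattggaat
RLM1: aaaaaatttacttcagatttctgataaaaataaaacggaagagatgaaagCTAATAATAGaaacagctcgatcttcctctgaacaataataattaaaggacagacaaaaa
HSP150: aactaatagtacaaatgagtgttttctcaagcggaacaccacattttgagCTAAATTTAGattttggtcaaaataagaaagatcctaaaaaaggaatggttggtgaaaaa
The stretch of PIR3 is chrXI:144071-144180 on the + strand. The stretch of SED1 is chrIV:600263-600372 on the + strand. The stretch of BGL2 is chrVII:1058884-1058993 on the - strand. The stretch of CWP1 is chrXI:260696-260805 on the + strand. The stretch of RLM1 is chrXVI:381399-381508 on the - strand. The stretch of HSP150 is chrX:120176-120285 on the + strand. None of the 6 matches lay inside another RefSeq gene, and their centres were 214 to 475 bases before the coding start, nearest in BGL2 and farthest in SED1. The windows of PRM5, SLT2, FKS2 and CRH1 did not hold these letters. Among motifs of other factors, searched on both strands, the stress response element AGGGG was found before 4 of the 10 genes (39.6% of all windows), the heat shock motif GAANNTTC before 3 (22.7%) and the Swi4 motif CNCGAAA before 5 (24.7%). Matches to different motifs shared no base. A match is a description of sequence and was not tested as a binding site.

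**Figure D1:**
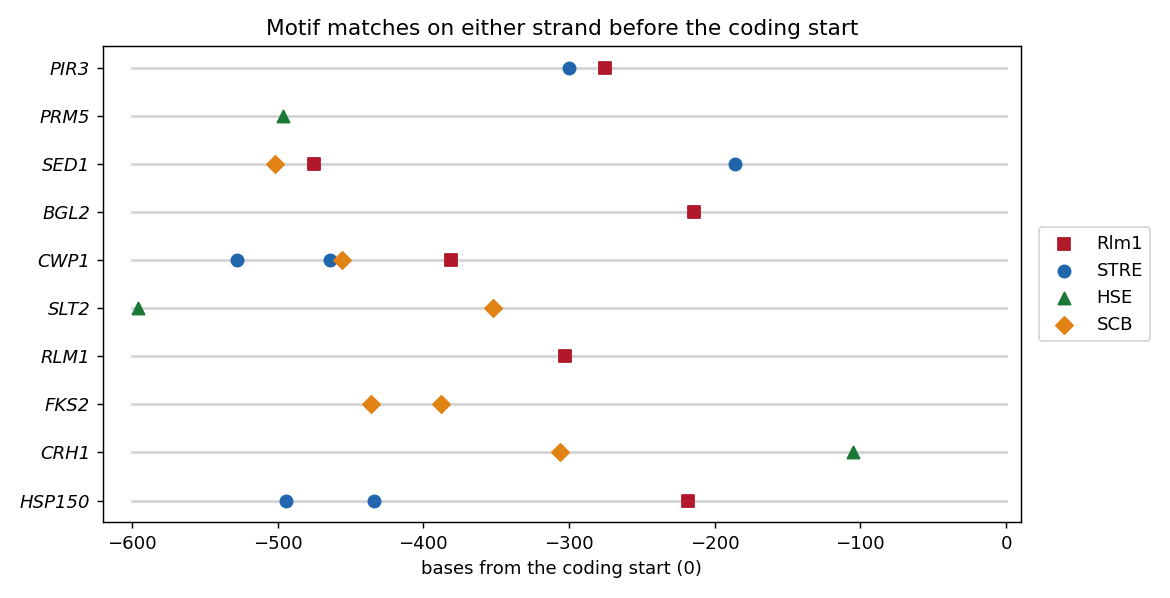
Positions of 4 motifs in the 600 bases before the coding start (0 on the x axis, in bases) of each of the 10 genes, with 1 row per gene and 1 symbol per match on either strand (STRE, stress response element; HSE, heat shock motif; SCB, Swi4 motif). The 6 Rlm1 matches lie between 214 and 475 bases before the coding start.

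Per length, the levels of the 10 genes in untreated cells ran over a 115-fold range. On the scale of CPM (counts scaled to library size) per kb of coding length, the wall mannoprotein gene SED1 was highest at 2080 ± 196 (SD, n = 3), followed by HSP150 at 1410 ± 139, BGL2 at 1060 ± 135, CWP1 at 481 ± 76.3 and CRH1 at 314 ± 13.4. Then came SLT2 at 147 ± 16.4, PRM5 at 107 ± 5.06, PIR3 at 67.4 ± 11.9, RLM1 at 43.2 ± 2.75 and FKS2 at 18.1 ± 1.9. No 2 neighbours in this order overlapped in their 3 untreated libraries. At 3 h of 5-Ph-IAA the order was the same, but HSP150 (1240 ± 49.2) overlapped BGL2 (1230 ± 53), and SLT2 (198 ± 30.8) overlapped PRM5 (178 ± 36.3).

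Across the 5 groups 8 of the 10 genes had their lowest mean at 0.5 h of 5-Ph-IAA, where 17.6% of all tested genes had theirs. PRM5 and BGL2 were lowest in DMSO. The highest mean was at 3 h of 5-Ph-IAA in 9 of the 10 genes, as in 24.7% of all tested genes, and in untreated cells for HSP150. Between their lowest and highest group, PIR3 differed 3.21 times, FKS2 2.27 times, SED1 1.88 times, SLT2 1.82 times and PRM5 1.75 times, and the others 1.44 to 1.59 times. The highest group and the range of FKS2 rest partly on library 2, since it had 190, 296 and 166 CPM at 3 h of 5-Ph-IAA. Its DMSO libraries had 173, 240 and 152 CPM, and without library 2 of 5-Ph-IAA the fitted difference was -0.08 log2. Together the 10 genes held 0.559% to 0.626% of all counts in untreated libraries and 0.54% to 0.627% in those of DMSO. Under 5-Ph-IAA their share was 0.432% to 0.454% in the 0.5 h libraries, 0.494% to 0.569% in the 1.5 h libraries and 0.747% to 0.778% in the 3 h libraries. The 95% Wilson interval of each share was within 0.0108 percentage points of it and covers counting error only. The shares are of raw counts, without TMM scaling. SED1, HSP150 and BGL2 had the largest counts of the 10 genes in every library, so the shares mostly follow those genes.

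**Figure D2:**
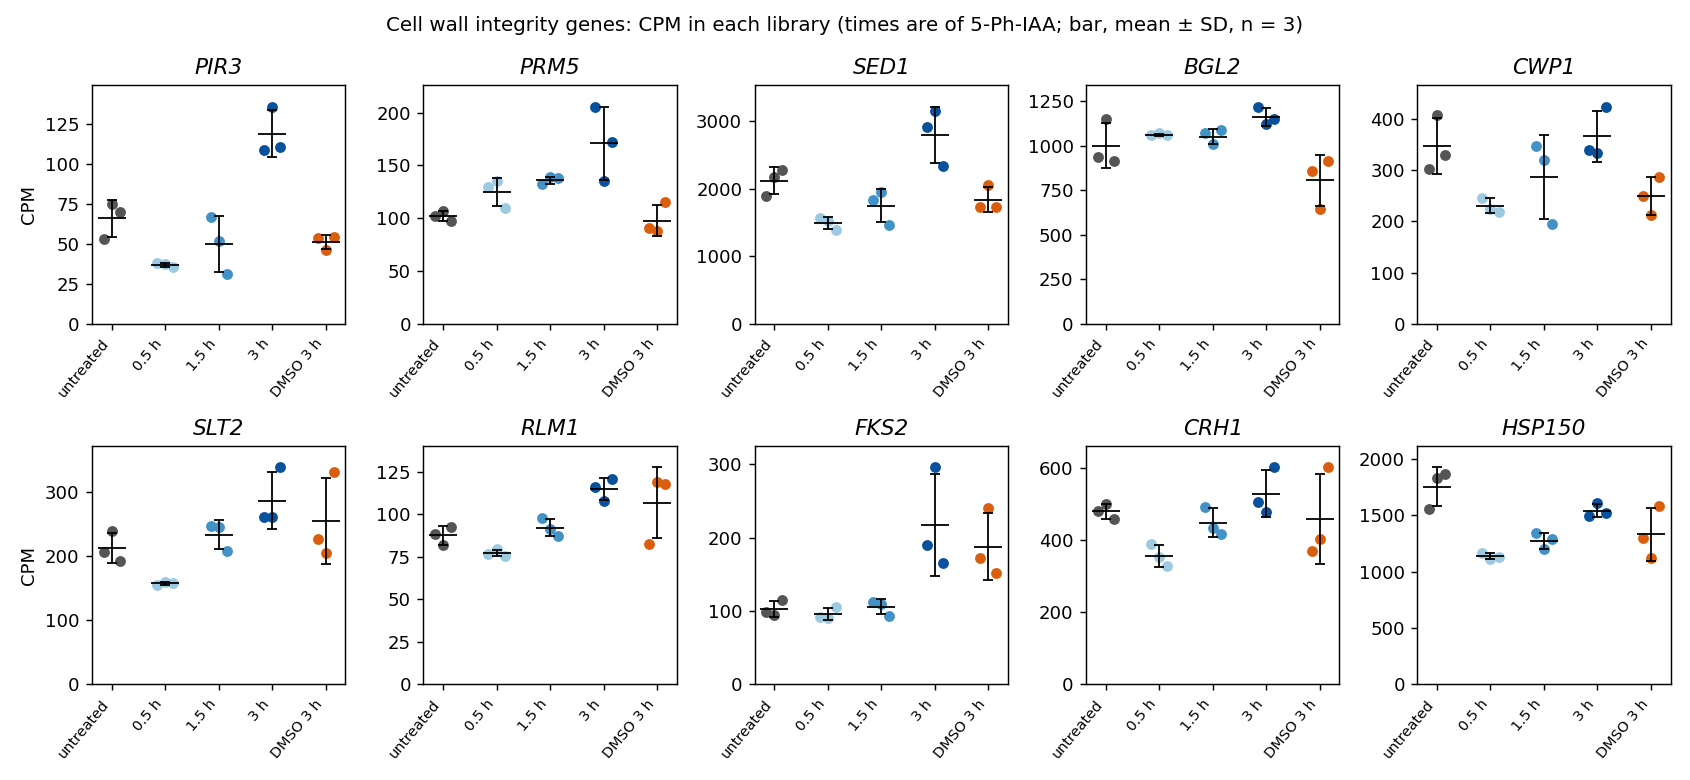
CPM of each of the 10 genes in every library, with the mean and SD of 3 libraries per group, on axes that start at 0 (times are those of 5-Ph-IAA). PIR3 has 35.5 to 37.9 CPM at 0.5 h and 109 to 136 CPM at 3 h, and the 3 h libraries of PRM5, SED1, BGL2 and CWP1 all lie above those of DMSO.

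**Figure D3:**
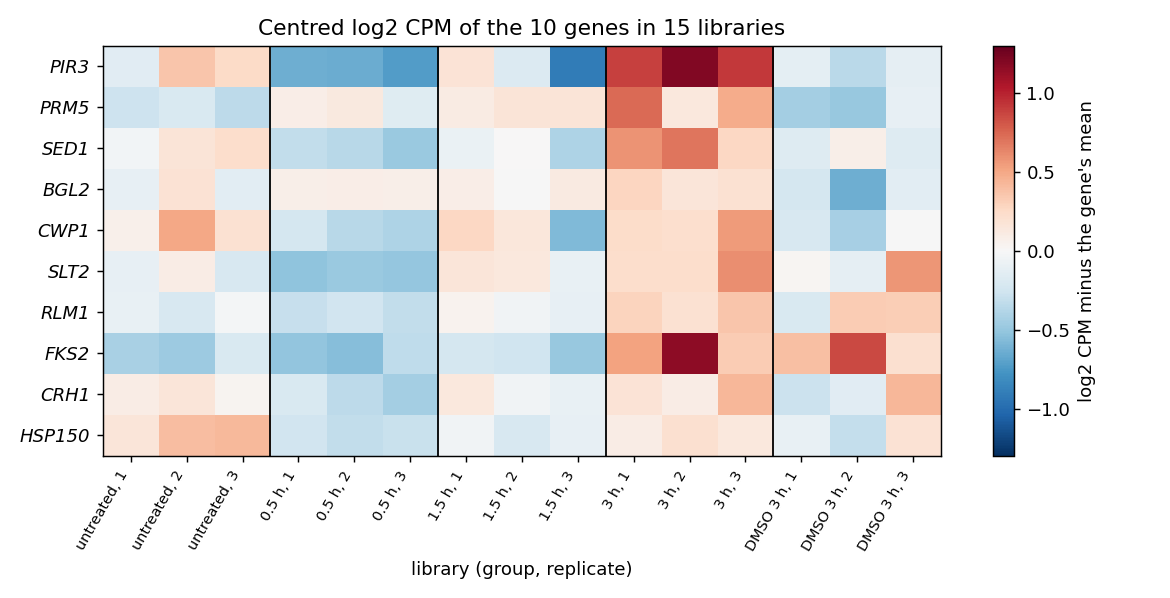
Log2 CPM of the 10 genes (rows) minus each gene's mean over the 15 libraries (columns, in groups of 3), in colour. The 3 columns at 0.5 h are low for all genes but PRM5 and BGL2, and those at 3 h of 5-Ph-IAA are above the mean in all 10 genes.

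Setting the 5-Ph-IAA libraries of 3 h against their DMSO counterparts keeps solvent and time in culture equal. Genes of the wall proteins PIR3 and SED1, the glucan remodelling enzyme BGL2 and the membrane protein PRM5 were higher under 5-Ph-IAA. The wall protein genes CWP1 and HSP150, the remodelling gene CRH1, the kinase gene SLT2, the factor gene RLM1 and the glucan synthase gene FKS2 did not pass. In edgeR's quasi-likelihood test 4 of the 10 genes were higher at an adjusted p under 0.05 and 0 lower, where 5.07% of all tested genes were higher, 2.87% lower and 7.94% called in either direction. All 10 log2 fold changes were above 0, with a median of 0.37 against -0.02 over all genes tested. DESeq2 called 5 higher and 0 lower. At an unadjusted p under 0.05 in edgeR there were 5, all higher, against 1332 of all 6069 tested genes in either direction. When only these 2 groups were fitted, 1 of the 10 passed, PIR3, and 151 of all genes instead of 482.

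PIR3 encodes a Pir protein, one of a family with internal repeats that is bound covalently to glucan. It had 109, 136 and 111 CPM in the 3 libraries of 5-Ph-IAA at 3 h and 53.8, 46.1 and 54.1 in those of DMSO. All treated libraries were above all of DMSO, by 2.3 times (1.20 log2, SE 0.20, edgeR adjusted p = 0.00128, n = 3 and 3). The call held in all 14 alternatives, at 1.12 to 1.26 log2. PIR3 lies 1581 bases from PIR1, which is read in the other direction and whose coding sequence matches that of PIR3 at 72.2% identity over 99.8% of the length of PIR3. PIR1, chosen for mention after its values were seen, had 573, 447 and 586 CPM in the treated libraries and 543, 458 and 825 in DMSO, which overlapped.

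PRM5 encodes a predicted membrane protein whose gene is known to rise in pheromone and in cell wall stress. Its libraries had 205, 135 and 172 CPM under 5-Ph-IAA and 90.7, 87.7 and 115 in DMSO, without overlap, at 1.75 times the DMSO level (0.81 log2, SE 0.14, adjusted p = 0.00183). The call ended only when the 2 groups were fitted alone (adjusted p = 0.0566). No near copy of PRM5, BGL2 or CRH1 was found among yeast coding sequences.

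SED1, a wall mannoprotein on a lipid anchor, had 2910, 3150 and 2340 CPM under 5-Ph-IAA against 1730, 2060 and 1730 in DMSO. The treated libraries were all higher, by 1.52 times (0.61 log2, SE 0.14, adjusted p = 0.0122). Without library 2 of 5-Ph-IAA the adjusted p was 0.0513 at 0.52 log2, without library 1 of DMSO 0.0594 at 0.56, and with the 2 groups fitted alone 0.145. BGL2, a glucanase that joins glucan chains in the wall, had 1220, 1120 and 1150 CPM against 858, 646 and 917. Its groups did not overlap and it was 1.44 times as high (0.53 log2, SE 0.13, adjusted p = 0.019). That call ended without library 1 of 5-Ph-IAA (0.49, adjusted p = 0.0541), without library 2 of DMSO (0.39, adjusted p = 0.0576) and with the 2 groups alone (0.19).

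CWP1, a mannoprotein linked to glucan, had 340, 334 and 424 CPM under 5-Ph-IAA and 250, 213 and 287 in DMSO. The libraries did not overlap, but the difference did not pass (0.55 log2, SE 0.19, adjusted p = 0.0858). A fit that pairs same-numbered 3 h libraries called it higher (0.55, adjusted p = 0.0403), as did DESeq2 (0.56, adjusted p = 0.0363). In all, 5 of the 10 genes had every treated library above every DMSO library, against 9.75% of all tested genes, and 0 had every treated library below, against 10.2%.

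The other 5 genes overlapped between the groups. SLT2, the MAP kinase, had 261, 262 and 339 CPM against 227, 206 and 332 (0.18 log2, adjusted p = 0.583). In both groups library 3 was the highest. RLM1 had 116, 108 and 121 CPM against 82.6, 119 and 118 (0.11, adjusted p = 0.655), and the sign turned without library 1 of DMSO (-0.04). FKS2, the stress-induced catalytic subunit of glucan synthase, had 190, 296 and 166 CPM against 173, 240 and 152 (0.19, adjusted p = 0.623), with library 2 highest in both, and the sign turned without library 2 of 5-Ph-IAA (-0.08). CRH1, which joins chitin to glucan, had 477 to 601 CPM against 369 to 601 (0.21, adjusted p = 0.497), and passed without library 3 of DMSO (0.45, adjusted p = 0.0458). HSP150, a heat-induced Pir protein, had 1490 to 1610 CPM against 1120 to 1580 (0.21, adjusted p = 0.374).

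**Figure D4:**
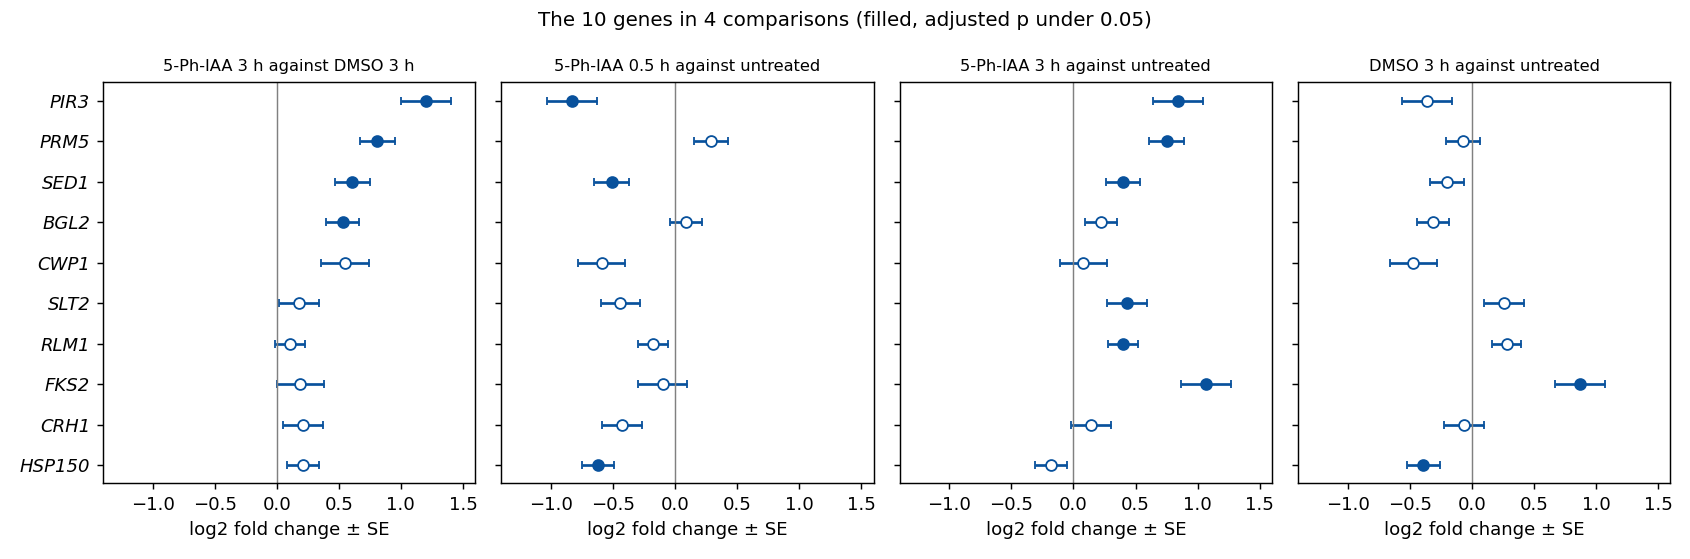
Log2 fold change (x axis) with its SE for each of the 10 genes in 4 comparisons, from edgeR's fit over 15 libraries, with filled points for an adjusted p under 0.05. PIR3, PRM5, SED1 and BGL2 are filled against DMSO, whereas FKS2 is filled against untreated cells both under 5-Ph-IAA at 3 h (1.07) and in DMSO (0.87).

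The same comparison was read in 86 other genes of the wall and its signalling, in 6 lists, all of which passed the filter. Of these 86, 3 were higher, 0 lower and 83 did not pass, with a median of 0.03 log2. Over all tested genes 5.07% were higher and 2.87% lower, so the lists held no more calls than the genes at large. DESeq2 called 5 of the 86 higher and 0 lower. In edgeR 11 of the 86 had an unadjusted p under 0.05, against 1332 of all 6069 tested genes. The 3 were NCA3, of a family of wall-linked SUN proteins, at 54.2 against 23.8 CPM (1.19 log2, SE 0.18, adjusted p = 0.00057), BAG7, which turns Rho1 off, at 49.6 against 23.9 CPM (1.04, SE 0.19, adjusted p = 0.00279), and EXG2, an exoglucanase, at 130 against 101 CPM (0.37, SE 0.11, adjusted p = 0.0491). The calls of NCA3 and BAG7 held in all 14 alternatives, but EXG2 lost its call in 9 of 14, with adjusted p of 0.0613, 0.0922 and 0.123 without library 1, 2 or 3 of 5-Ph-IAA and 0.188 and 0.0767 without library 1 or 2 of DMSO. FKS1, the main glucan synthase gene (0.23, adjusted p = 0.354), and CCW12, a major wall mannoprotein gene (0.29, adjusted p = 0.279), did not pass.

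By list, 1 of 13 genes of the sensors and the Rho1 module was higher and 2 of 19 wall remodelling enzymes. In edgeR 0 of 12 genes of the kinase cascade and its brakes, 0 of 11 of glucan synthesis, 0 of 11 of chitin synthesis and 0 of 20 wall mannoproteins passed, with 1, 2, 1 and 2 at an unadjusted p under 0.05, and DESeq2 called 1 mannoprotein and none in the other 3 lists. In the fit that pairs same-numbered 3 h libraries, 8 of the 86 were higher and 0 lower. The same fit called 820 of all 6069 tested genes in either direction, so the 86 were not called more often than genes at large. Those added among the 86, named after their values were seen, were GAS5 (0.53), GAS3 (0.34), CCW14 (0.53), SRL1 (0.77) and CHS7 (0.28). The count among the 86 was 8 also without library 3 of DMSO, and 2 without library 1 or 2 of either group.

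**Figure D5:**
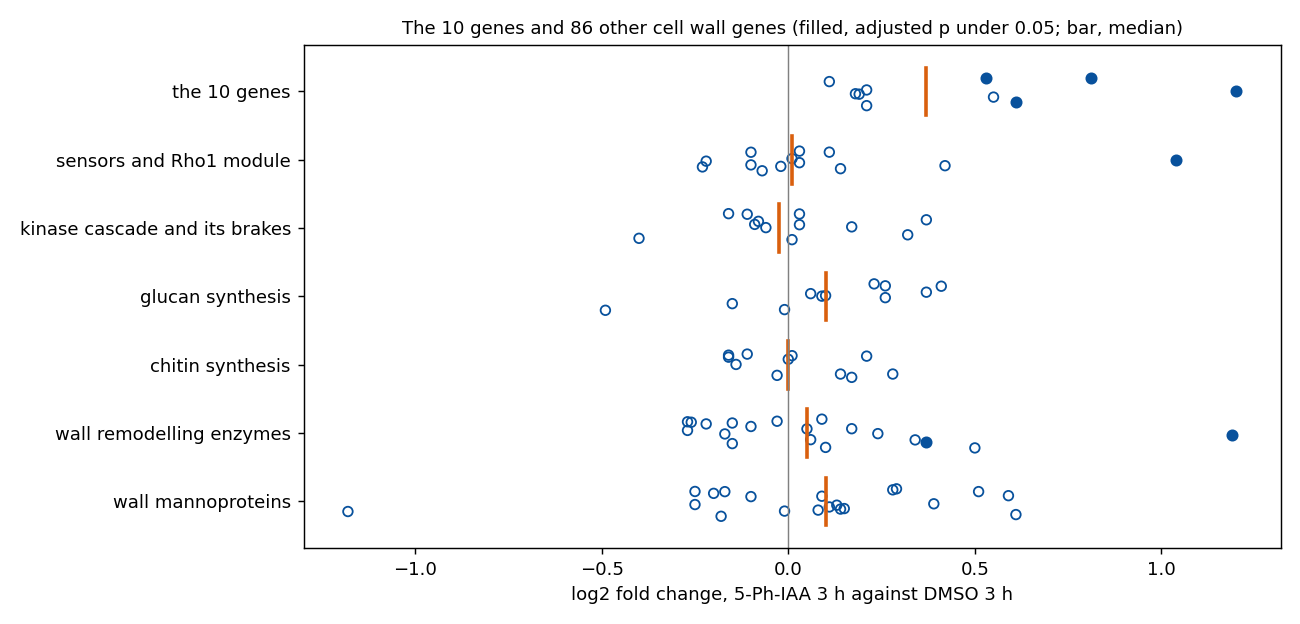
Log2 fold change of 5-Ph-IAA against DMSO at 3 h (x axis) for the 10 genes and for 86 other wall genes in 6 lists, with filled points for an adjusted p under 0.05 and a bar at each list's median. The median of the 10 genes is 0.37 and those of the 6 lists are between -0.03 and 0.10.

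At 0.5 h of 5-Ph-IAA, against untreated cells, the wall protein genes PIR3, SED1 and HSP150 were called lower. The wall protein gene CWP1 was not called, and no member was called higher. The count was 3 lower and 0 higher of 10, where 2.78% of all tested genes were lower and 3.36% higher (6.15% in all), and DESeq2 called 4 lower and 0 higher. The median of the 10 genes was -0.43 log2, against -0.03 over all genes tested. When only these 2 groups were fitted, 6 of the 10 were lower, and 568 of all genes were called in either direction instead of 373.

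HSP150 had 1160, 1110 and 1130 CPM at 0.5 h and 1550, 1830 and 1860 untreated. All libraries at 0.5 h were below all untreated ones (-0.62 log2, SE 0.13, adjusted p = 0.00654, n = 3 and 3), and the call held in all 13 alternatives. PIR3 had 37.9, 37.6 and 35.5 CPM against 52.9, 75.2 and 69.8, also without overlap (-0.83 log2, SE 0.20, adjusted p = 0.0203). Its adjusted p was 0.0764 or 0.0779 without library 2 or 3 of untreated cells, and 0.0623, 0.0665 or 0.0718 without library 1, 2 or 3 of 5-Ph-IAA, at -0.85 to -0.73 log2. SED1 had 1560, 1520 and 1390 CPM against 1890, 2180 and 2280 (-0.51, SE 0.14, adjusted p = 0.0395). Leaving out library 2 or 3 of untreated cells gave it an adjusted p of 0.0995 or 0.16, and library 1, 2 or 3 of 5-Ph-IAA 0.0827, 0.108 or 0.148.

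Another 4 genes had every library at 0.5 h below every untreated one but did not pass: CWP1 (230 ± 14.7 against 347 ± 55 CPM, adjusted p = 0.0786), SLT2 (158 ± 2.5 against 213 ± 23.9, 0.147), CRH1 (356 ± 30.3 against 479 ± 20.4, 0.144) and RLM1 (77.4 ± 1.96 against 87.7 ± 5.58, 0.476). With the 3 called, 7 of the 10 genes were thus lower without overlap, as were 16.6% of all tested genes. With only these groups fitted CWP1 (adjusted p = 0.0115), SLT2 (0.0251) and CRH1 (0.0289) passed as lower, and CWP1 also passed in DESeq2 (0.0279) and with total counts alone (0.0472). PRM5 had 130, 135 and 110 CPM against 102, 107 and 97.3, and was the 1 gene of the 10 above untreated cells without overlap (12.4% of all tested genes), but did not pass (0.29 log2, adjusted p = 0.269). BGL2 (0.09, adjusted p = 0.784) and FKS2 (-0.10, adjusted p = 0.83) overlapped.

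Of the 86 other wall genes, 11 were lower at 0.5 h and 2 higher (2.78% and 3.36% of all tested genes), with a median of -0.14. Among 20 wall mannoproteins 4 were lower and 1 higher, including YGP1 at 157 against 247 CPM (-0.65 log2, SE 0.12, adjusted p = 0.00313), SPI1 at 13.6 against 26.9 CPM (-0.99, adjusted p = 0.00457) and, higher, TIP1 at 267 against 125 CPM (1.10, adjusted p = 0.000261). Of 11 genes of glucan synthesis 2 were lower and 0 higher, SKN1 (-0.79, adjusted p = 0.000234) and the synthase relative FKS3 (-0.83, adjusted p = 0.0472). Of 11 genes of chitin synthesis 3 were lower and 0 higher, CHS3, the synthase of most wall chitin (-0.61, adjusted p = 0.00927), CHS1 (-0.59, adjusted p = 0.0108) and CHS2 (-0.53, adjusted p = 0.0346). Of 19 wall remodelling enzymes 2 were lower, the SUN gene UTH1 (-0.66, adjusted p = 0.0113) and the cell separation gene EGT2 (-0.57, adjusted p = 0.0123), and 1 higher, GAS3, of a family of glucan-elongating enzymes (0.76, adjusted p = 0.000235).

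These calls at 0.5 h differed in stability. Those of YGP1, SPI1, TIP1, SKN1, CHS3 and GAS3 held in all 13 alternatives. FKS3 lost its call in 9 of 13, among them each of the 6 that leave out a library (adjusted p = 0.0637 to 0.19). CHS2 lost it in 4, without library 1 or 3 of untreated cells (0.143 and 0.106) or library 2 or 3 of 5-Ph-IAA (0.102 and 0.17). EGT2 lost it in 4, without library 3 of untreated cells (0.0759) or library 1, 2 or 3 of 5-Ph-IAA (0.063, 0.0586 and 0.0511). CHS1 lost it in 3, without library 1 of untreated cells (0.07) or library 1 or 3 of 5-Ph-IAA (0.0661 and 0.0561), and UTH1 in 3, without library 3 of untreated cells (0.0779) or library 1 or 2 of 5-Ph-IAA (0.0669 and 0.0731). In edgeR 0 of 13 genes of the sensors and the Rho1 module and 0 of 12 of the kinase cascade and its brakes passed, and 0 in DESeq2. At an unadjusted p under 0.05 in edgeR there were 2 and 1, against 1180 of all 6069 tested genes.

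By 1.5 h of 5-Ph-IAA most of the 10 genes overlapped their untreated levels. HSP150 was the only member called, with 1340, 1200 and 1290 CPM, all below the untreated libraries (-0.45 log2, SE 0.13, adjusted p = 0.0205). That is 1 of 10 lower and 0 higher, where 9.74% of all tested genes were lower, 7.86% higher and 17.6% called in all, and DESeq2 called 1 in each direction. The call of HSP150 ended without library 2 or 3 of untreated cells (adjusted p = 0.0718 and 0.101) and without library 1, 2 or 3 of 5-Ph-IAA (0.0574, 0.0916 and 0.0569). PRM5 had 132, 139 and 138 CPM, all above the untreated libraries, and came close to the threshold (0.42 log2, SE 0.14, adjusted p = 0.0527). No overlap was seen in 1 gene of the 10 in each direction, PRM5 and HSP150, against 19% of all tested genes higher and 22.2% lower. PRM5 passed in DESeq2 (0.0292), with total counts alone (0.0275), with no filter (0.0497), with a mean of at least 10 CPM (0.0391) and with the 2 groups fitted alone (0.00381). PIR3 was uneven, with 66.6, 52 and 31.2 CPM, and was called lower only without library 1 of 5-Ph-IAA (-0.64, adjusted p = 0.0465). CWP1 was also lowest in library 3, with 348, 320 and 194 CPM. Among the 86 other wall genes 6 were higher and 14 lower at 1.5 h, where 7.86% and 9.74% of all tested genes were. Their median was -0.1 log2.

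Between 0.5 h and 1.5 h of 5-Ph-IAA 0 of the 10 genes passed in edgeR, where 1.14% of all tested genes did (0.923% higher and 0.214% lower). At an unadjusted p under 0.05 there were 2 of the 10, against 679 of all 6069 tested genes. DESeq2 called 1, SLT2, which had 155, 160 and 158 CPM at 0.5 h and 248, 246 and 208 at 1.5 h. All of its libraries were higher at 1.5 h (0.57 log2, SE 0.16, adjusted p = 0.122), and it also passed with total counts alone (0.69, adjusted p = 0.0403) and with the 2 groups fitted alone (0.59, adjusted p = 0.00614). SLT2, RLM1, CRH1 and HSP150, 4 of the 10, were higher without overlap, against 11.9% of all tested genes, and 0 were lower, against 13.2%. Of the 86 other wall genes 3 were higher and 1 lower.

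From 1.5 h to 3 h of 5-Ph-IAA PIR3, SED1 and FKS2 rose. PIR3 went from 31.2 to 66.6 CPM up to 109 to 136 (1.24 log2, SE 0.20, adjusted p = 0.000929), SED1 from 1470 to 1950 up to 2340 to 3150 (0.67, SE 0.14, adjusted p = 0.00457) and FKS2 from 93.6 to 113 up to 166 to 296 (1.03, SE 0.20, adjusted p = 0.00306). Their libraries did not overlap, and the 3 calls held in all 13 alternatives. The count was 3 of 10 higher and 0 lower, where 8.9% of all tested genes were higher and 6.94% lower (15.8% in all), and DESeq2 called 3 higher. At an unadjusted p under 0.05 in edgeR there were 6 of the 10, against 1829 of all 6069 tested genes. Higher without overlap were 7 of the 10 (PIR3, SED1, FKS2, BGL2, SLT2, RLM1 and HSP150), against 16% of all tested genes, and 0 were lower, against 16.2%. PRM5 (0.33, adjusted p = 0.127) passed without library 2 of 5-Ph-IAA at 3 h (0.48, adjusted p = 0.0372). Of the 86 other wall genes 13 rose and 1 fell. This step also holds time in culture and in solvent.

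At 3 h of 5-Ph-IAA, against untreated cells, 6 of the 10 genes were higher: FKS2, PIR3, PRM5, SED1, SLT2 and RLM1. None was lower, and DESeq2 gave the same counts. Over all tested genes 19.6% were higher, 19.7% lower and 39.3% called in all. The median of the 10 genes was 0.40 log2 against 0.01 over all genes tested. FKS2 was 2.1 times as high (217 ± 69.5 against 103 ± 10.8 CPM, 1.07 log2, SE 0.20, adjusted p = 0.000449), PIR3 1.79 times (119 ± 14.7 against 66 ± 11.6, 0.84, adjusted p = 0.00316) and PRM5 1.68 times (171 ± 34.7 against 102 ± 4.84, 0.75, adjusted p = 0.00056). In these 6 genes all treated libraries were above all untreated ones, as in 22.5% of all tested genes, and 0 of the 10 lay below, against 23.8%. In addition the calls of FKS2, PIR3 and PRM5 held in all 13 alternatives.

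The other 3 calls at 3 h were less stable. SED1 (0.40 log2, adjusted p = 0.0295) lost its call without library 1 of untreated cells (0.121), without library 1 or 2 of 5-Ph-IAA (0.0727 and 0.0916) and with the 2 groups alone (0.0683). SLT2 (0.43, adjusted p = 0.0448) lost it without library 1 or 3 of untreated cells (0.113 and 0.12), without library 3 of 5-Ph-IAA (0.29 log2, adjusted p = 0.189) and in the fit blocked on replicate number (0.056). RLM1 (0.40, adjusted p = 0.0188) lost it without library 2 of untreated cells (0.057) or library 3 of 5-Ph-IAA (0.0586). BGL2 (0.22), CRH1 (0.14), CWP1 (0.08) and HSP150 (-0.18) did not pass, at adjusted p = 0.207, 0.518, 0.775 and 0.272. BGL2 passed with total counts alone (0.35, adjusted p = 0.0232), a scaling that moves the median of all genes to 0.15. The value of CWP1 turned to -0.01 without library 1 of untreated cells and to -0.04 without library 3 of 5-Ph-IAA.

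In DMSO at 3 h, against the same untreated libraries, FKS2 was higher and HSP150 lower. FKS2 had 173, 240 and 152 CPM against 98.2, 95.3 and 115, 1.83 times as much without overlap (0.87 log2, SE 0.20, adjusted p = 0.00243), and this held in all 13 alternatives. HSP150 had 1300, 1120 and 1580 CPM against 1550, 1830 and 1860, which overlapped (-0.39, SE 0.13, adjusted p = 0.0234). Its call ended without library 2 or 3 of untreated cells (0.0918 and 0.11), without library 1 or 2 of DMSO (0.064 and 0.0979), with total counts alone (-0.19, adjusted p = 0.178) and with the 2 groups alone (0.0978). The counts were 1 of 10 higher and 1 lower, where 17.6% of all tested genes were higher, 18.5% lower and 36.1% called in all. Without overlap, FKS2 was the 1 gene of the 10 higher, against 22.3% of all tested genes, and CWP1 the 1 lower, against 23.5%. The median was -0.13 log2 against 0.01 over all genes tested.

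PIR3 (-0.36, adjusted p = 0.165), PRM5 (-0.07, adjusted p = 0.759), SED1 (-0.20, adjusted p = 0.279) and CRH1 (-0.06, adjusted p = 0.789) did not pass in DMSO, and with total counts alone PRM5, SED1 and CRH1 turned to 0.13, 0.01 and 0.13. BGL2 (-0.31, adjusted p = 0.0747) and CWP1 (-0.47, adjusted p = 0.0612) were called lower without library 3 of DMSO (adjusted p = 0.0302 and 0.0386), and CWP1 also in DESeq2 (0.0404). RLM1 (0.28, adjusted p = 0.0846) was called higher without library 1 of DMSO (0.43, adjusted p = 0.00398) and with total counts alone (0.0109), as was SLT2 (0.26, adjusted p = 0.239) with total counts alone (0.0358). The 2 comparisons with untreated cells share those libraries, so their values are only set side by side. The difference between the 3 h groups is the test of 5-Ph-IAA against DMSO given above.

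At 3 h the other wall genes were called against untreated cells about as often as genes at large. Of the 86, 18 were higher and 17 lower under 5-Ph-IAA (median 0.00 log2), where 19.6% and 19.7% of all tested genes were, and 13 were higher and 18 lower in DMSO (median -0.10), where 17.6% and 18.5% of all tested genes were. In the Rho1 module BAG7 had 49.6 CPM under 5-Ph-IAA, 23.9 in DMSO and 8.93 untreated (2.46 and 1.43 log2 against untreated, adjusted p = 3.42e-07 and 6.53e-05), and the sensor gene MTL1 33.6, 25.2 and 13.4 CPM (1.33 and 0.92, adjusted p = 0.000172 and 0.00358). Of the phosphatases that act on Slt2, SDP1 (0.91 and 1.32) and PTP2 (0.72 and 0.78) were higher in both groups and MSG5 lower (-0.53 and -0.56), while PTP3 (-0.27 and -0.28) did not pass. The chitin synthesis list held 3 higher and 3 lower genes under 5-Ph-IAA and 1 higher and 3 lower in DMSO. In both groups the synthase gene CHS1 was higher (613 and 676 CPM against 338), and CHS2 (-0.61 and -0.45), CHS3 (-0.41 and -0.38) and SKT5, an activator of Chs3 (-0.56 and -0.40), were lower. The glucan synthesis gene KNH1 (1.37 and 1.12) and the yapsin protease gene YPS1 (1.26 and 1.15) were higher in both, and the SUN gene UTH1 was lower (-0.92 and -0.89). NCA3 was lower in DMSO (-1.10, adjusted p = 0.000177) and was not called under 5-Ph-IAA. The calls of these genes held in every alternative run in each comparison except those of CHS3 in both and of CHS2 and SKT5 in DMSO. SDP1 was run in 12 and each other gene in 13, and SDP1 and CHS3 under 5-Ph-IAA and SKT5 in DMSO were named after their values were seen. CHS3 under 5-Ph-IAA lost its call in 5, with adjusted p of 0.0672, 0.0764 and 0.0914 without library 1 or 3 of untreated cells or library 3 of 5-Ph-IAA. In DMSO CHS3 lost it in 5, with 0.0938, 0.103 and 0.0944 without library 1 or 3 of untreated cells or library 3 of DMSO. CHS2 lost it there in 4, with 0.0869, 0.0574 and 0.0736 without library 1 or 3 of untreated cells or library 2 of DMSO, and SKT5 in 6, with 0.0875, 0.164, 0.0944 and 0.12 without library 1 or 2 of untreated cells or library 1 or 2 of DMSO.

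Close relatives of PIR3, FKS2, HSP150 and SLT2 could share reads with them, and how the authors counted reads with several matches is unknown here. FKS2 matched FKS1 at 81.6% identity over 91.9% of its length, and FKS1 had 1160 ± 158 CPM untreated and 1080 ± 101 in DMSO. Under 5-Ph-IAA its means were 904 ± 82.1, 904 ± 18.3 and 1270 ± 208 CPM, in order of time. SLT2 matched KDX1, a kinase relative without a complete active site, at 67.5% over 54.0% of its length. KDX1 had 55.1 ± 5.62 CPM untreated, 85 ± 7.54 in DMSO and, under 5-Ph-IAA, 50 ± 4.39, 75.8 ± 12 and 106 ± 11.1 in order of time. Against untreated cells KDX1 was called higher at 3 h of 5-Ph-IAA (0.95 log2, edgeR adjusted p = 3.54e-05) and in DMSO (0.63, adjusted p = 0.00144). PIR3 and HSP150 both had their longest match in PIR1, HSP150 at 75.6% over 72.2% of its length. PIR1 went from 813 ± 16.2 CPM untreated to 535 ± 77.2 at 3 h of 5-Ph-IAA, where PIR3 went from 66 ± 11.6 to 119 ± 14.7. No member overlapped another RefSeq gene.

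Likeness of pattern was read as the root mean square difference of log2 CPM, centred on each gene, over the 15 libraries, where a smaller value is more alike. Among the 10 genes the closest pair was SLT2 and CRH1 at 0.17, then RLM1 and CRH1 at 0.181 and CRH1 and HSP150 at 0.187. The farthest was BGL2 and FKS2 at 0.624. Among 5207 genes outside the 10 with a mean of at least 10 CPM, RCR1 (0.131), FLC2 (0.136) and NVJ1 (0.145) were closest to SLT2, PRM10 (0.159), ACA1 (0.165) and YNR065C (0.165) to SED1, and VID24 (0.322), SNA2 (0.325) and BDH2 (0.331) to PIR3. PIR3 itself had a standard deviation of 0.616 over the libraries on this scale, against 0.335 for SLT2 and 0.333 for SED1.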

How the data were processed

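STAR 2.7.0, FastQC 0.11.5, DESeq2 1.34.0 and build R64 are named in the submitters' processing notes. How reads were assigned to genes (program, strand, multiple matches, annotation release) is not given in the sources used here. The authors deposited raw counts per gene for 15 libraries. Of 7127 rows, 6047 matched the RefSeq R64 annotation by locus tag, which supplied names, coordinates and promoter sequences.

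The counts were tested by the two-sided quasi-likelihood test of edgeR 4.0.16 (with limma 3.58.1, in R 4.3.3), after filterByExpr and TMM normalization, with a mean for each group and Benjamini-Hochberg adjustment at 0.05 over the 6069 genes tested in each comparison. The biological coefficient of variation was 17%. CPM used TMM library sizes, log2 CPM a prior count of 1, and SEs came from the F statistic. Near copies were found with blastn 2.17.0, and figures drawn with matplotlib 3.10.9.

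The 10 genes and the lists were chosen with earlier results of these data known. The rule for naming other wall genes took, per list and comparison, at most the 3 calls of lowest adjusted p and the gene of highest mean CPM without a call; the text gives examples from these.

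Deviations from the group means correlated at 0.196, 0.302 and 0.586 between libraries 1, 2 and 3 of 5-Ph-IAA and of DMSO at 3 h, and at most at 0.17 between unlike numbers. Those 6 libraries were therefore also fitted as pairs, which rests on these correlations, since the labels state no pairing. In each other comparison at least 1 correlation was under 0.1. Alternatives were only the compared groups, DESeq2 1.42.0, a minimum mean of 10 CPM, no filter, RLE, total counts alone, a block for replicate number, and leaving out each library, whose group then keeps 2 libraries with a spread pooled over groups.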

Additional observations from a re-analysis of the deposited data

How the results depend on the processing

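Of the values of single genes under the alternatives, 1499 kept direction and side of the threshold, 97 lost their call, 25 gained one and 15 changed sign, none of the last with a call. The sign changes not given above were FKS2 at 1.5 h without untreated library 2 (-0.01), PRM5 in DMSO without DMSO library 2 (0.01), CRH1 in DMSO without DMSO library 1 (0.07) or 2 (0.02), and BGL2 from 0.5 h to 1.5 h with total counts alone (0.10), with only the compared groups (0.01), without 5-Ph-IAA library 2 at 0.5 h (0.01) or at 1.5 h (0.02). The others were RLM1 (-0.04) and FKS2 (-0.08) against DMSO, CWP1 at 3 h (-0.01 and -0.04) and, in DMSO with total counts alone, PRM5 (0.13), SED1 (0.01) and CRH1 (0.13). Over all alternatives the log2 fold changes ran up to 0.20 (RLM1) and 0.41 (FKS2) against DMSO, 0.14 (FKS2) at 1.5 h and 0.24 (CWP1) at 3 h. They ran down to -0.20 (PRM5) and -0.31 (CRH1) in DMSO and -0.03 (BGL2) from 0.5 h to 1.5 h. The cause was not tested.

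The larger changes in counts among the 10 genes were as follows, and smaller ones are not listed. With only the compared groups they went from 4 to 1 against DMSO, 3 to 6 at 0.5 h, 1 to 2 at 1.5 h, 2 to 1 in DMSO, and 0 to 1 from 0.5 h to 1.5 h. At 1.5 h the 1 became 2 also with DESeq2, total counts alone, no filter and a mean of at least 10 CPM, and from 0.5 h to 1.5 h the 0 became 1 with DESeq2 and total counts alone. Leaving out single libraries gave 3 to 5 against DMSO, 1 to 3 at 0.5 h, 0 to 1 at 1.5 h, 4 to 5 at 3 h, 1 to 4 in DMSO, 0 from 0.5 h to 1.5 h and 3 to 4 from 1.5 h to 3 h. Among the 86 other wall genes the count against DMSO went from 3 to 5 with DESeq2 and 8 with the replicate block for the 3 h libraries, and from 0.5 h to 1.5 h from 4 to 9 with DESeq2 and 8 with only the compared groups. Leaving out single libraries gave 2 to 8 against DMSO, 8 to 11 at 0.5 h, 12 to 20 at 1.5 h, 29 to 32 at 3 h, 22 to 35 in DMSO, 2 to 3 from 0.5 h to 1.5 h and 9 to 14 from 1.5 h to 3 h. The replicate block over 15 libraries ended the calls of SLT2 at 3 h (adjusted p = 0.056) and of EXG2 against DMSO (0.0656) and changed no other call of a named gene.

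Over all genes, the 482 called against DMSO became 151 with only the compared groups, 820 with the paired 3 h libraries and 272 without DMSO library 1. At 0.5 h 373 became 568 with only the compared groups and 178 to 274 without single libraries. At 1.5 h 1068 became 577 to 851 without single libraries. From 0.5 h to 1.5 h 69 became 170 with DESeq2, 115 with total counts alone and 222 with only the compared groups, and 23 to 42 without single libraries. From 1.5 h to 3 h 961 became 631 with only the compared groups and 523 to 1285 without single libraries. Total counts alone moved the share of higher calls from 63.9% to 49.7% against DMSO, 54.7% to 41% at 0.5 h, 44.7% to 58.5% at 1.5 h, 49.9% to 64.8% at 3 h, 48.7% to 74.2% in DMSO, 81.2% to 95.7% from 0.5 h to 1.5 h and 56.2% to 68.4% from 1.5 h to 3 h. It also moved the median of all genes to 0.15 log2 at 3 h, 0.21 in DMSO and 0.11 from 0.5 h to 1.5 h.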
